A study of Homo sapiens with 6 samples.

Results

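The chaperone genes described here are 36 named genes of protein folding and its quality control, 24 of the endoplasmic reticulum (ER) and 12 of the cytosolic heat shock system. They were taken by gene name from a list and followed across all libraries of a TAZ knockdown experiment. Of the 36 genes, 35 had a row in both deposited tables, all 24 of the ER and 11 of the cytosol, out of 13002 genes measured. HSPA1A is not analysed here. The RNA came from the human acute myeloid leukaemia cell line OCI-AML2 and was sequenced in 6 libraries, 2 in each of 3 groups. Cells carried either TAZ shRNA1 or TAZ shRNA2, which are 2 separate hairpins, or, as the control, a scramble hairpin. All 3 groups shared the lentiviral delivery and puromycin at 2 µg/mL for 3 days. The libraries of a group are lettered A and B. Nothing in the labels says that they stem from different cultures, so the p-values cover their spread alone and that spread may be technical.

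Proteins that enter the secretory pathway fold in the ER with the help of an Hsp70 (HSPA5), an Hsp90 (HSP90B1), lectin chaperones and disulfide isomerases. When unfolded protein builds up there, the membrane sensors ERN1 (IRE1), EIF2AK3 (PERK) and ATF6 switch on a transcriptional programme, the unfolded protein response, that raises these chaperones and the machinery that exports and degrades misfolded protein. In the cytosol the heat shock factor HSF1 drives a separate set of Hsp70, Hsp90, Hsp40 and small heat shock genes. TAZ encodes tafazzin, a mitochondrial enzyme that remodels the lipid cardiolipin.

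TAZ itself followed the labels. It stood at 4.02 and 4.10 RPKM with shRNA1, at 1.47 and 2.13 RPKM with shRNA2 and at 11.3 and 11.9 RPKM in the control. RPKM, as deposited by the authors, is reads scaled by gene length and by a total per library. All 4 hairpin libraries lay below both control libraries. On the log2 scale limma put it at -1.41 (SE 0.13, adjusted p = 0.00205) with shRNA1 and at -2.41 (SE 0.18, adjusted p = 0.00245) with shRNA2. Each library held between 18820193 and 20980426 reads in listed genes, while the RPKM of all genes summed to between 479943 and 616838, the highest in control A. The library totals implied by the RPKM ran from 17891370 in control A to 21104785 in shRNA1 B. In shRNA1 A, shRNA2 A and control A they lay below the reads in listed genes, so they were not plain read totals. Of 10 myeloid marker genes 9 had a row, and they summed to 5613 and 5067 RPKM with shRNA1, 4559 and 3807 RPKM with shRNA2 and 1109 and 955 RPKM in the control. LYZ, the lysozyme gene, made up most of those sums, with 5236 and 4742 RPKM with shRNA1, 4221 and 3494 RPKM with shRNA2 and 786 and 676 RPKM in the control. LYZ, CD33, FLT3 and CSF1R lay above both control libraries with each hairpin. ITGAM did too, but it reached no more than 1.27 RPKM, and shRNA1 B (0.579 RPKM) was nearly equal to control A (0.577 RPKM). MPO (myeloperoxidase) went the other way, with 5.16 and 4.63 RPKM with shRNA1, 1.02 and 1.49 RPKM with shRNA2 and 11.2 and 10.1 RPKM in the control. CEBPA overlapped the control with both hairpins, SPI1 overlapped it with shRNA1, and KIT reached no more than 0.149 RPKM. The part of these markers in the chaperone values was not tested. In bulk RNA, a change in the share of a kind of cell and a change in RNA per cell cannot be told apart.

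The members could be ranked by level, since RPKM is scaled by gene length. In the control the cytosolic chaperones HSP90AB1, HSPA8 and HSP90AA1 held the first 3 places, with means of 1750 ± 33.2, 1025 ± 322 and 973 ± 192 RPKM (SD, n = 2). HSP90AB1 was above the other 2 by more than their spread, and HSPA8 and HSP90AA1 overlapped. The most abundant ER members came next. P4HB, a disulfide isomerase, averaged 836 ± 112 RPKM, CALR (calreticulin) 643 ± 146 RPKM and HSP90B1 424 ± 117 RPKM. P4HB overlapped HSP90AA1, while the control libraries of P4HB, CALR and HSP90B1 stood in that order without overlap. The small heat shock gene HSPB1, at 316 ± 85.9 RPKM, and HSPA5, at 237 ± 126 RPKM, followed, each overlapping its neighbours. At the other end stood EIF2AK3 at 3.51 ± 0.597 RPKM, HSPA1B at 2.07 ± 1.90 RPKM and ERN1 at 0.291 ± 0.0812 RPKM. ERN1, with 19 to 72 reads per library, stayed below the mean of 1 RPKM required for testing, which left 34 tested members, 23 of the ER and 11 of the cytosol.

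**Figure D1:**
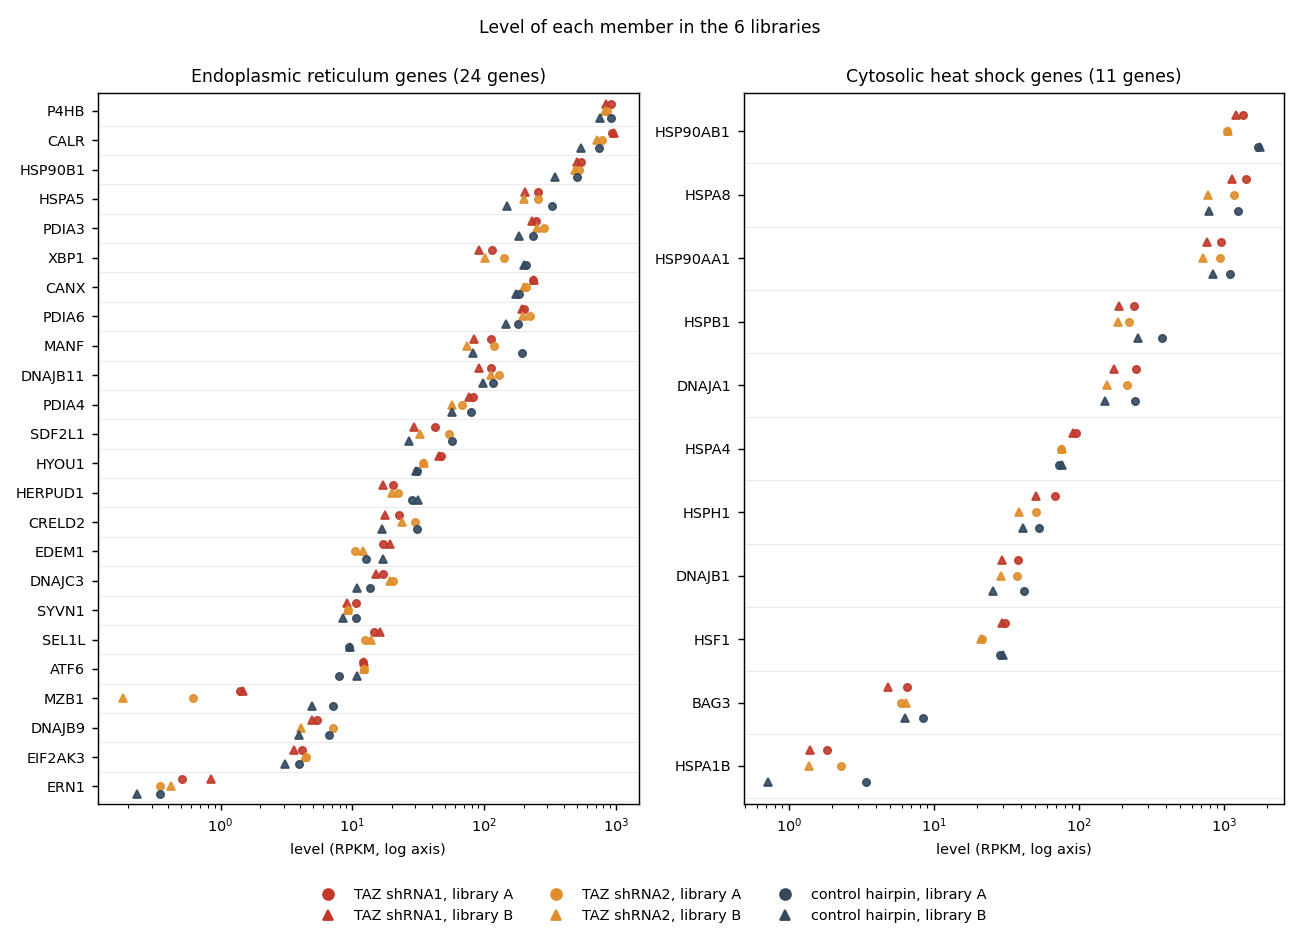
Level of each of the 35 members in RPKM on a log axis, with ER genes in the left panel and cytosolic heat shock genes in the right panel, ordered by control mean. Each point is 1 library (circle A, triangle B) coloured by group; MZB1 and XBP1 stand apart between hairpin and control points, while HSPA5, MANF and HSPA1B spread widely between the 2 control libraries.

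Sequence around the start of transcription differed between the ER and cytosolic members in known response elements. These elements are known from genes of such kinds, so the contrast was not independent of how the members were listed. Stretches that carry an element are shown here for a selection of members. RefSeq promoter windows of 300 bases (250 before and 50 after the start, build GRCh38.p14) were matched for 33 members, 23 of the ER and 10 of the cytosol, and searched on both strands. The ER stress response element, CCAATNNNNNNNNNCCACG, was present in 7 of the 23 ER members (CALR, CANX, CRELD2, HSP90B1, HSPA5, PDIA6 and XBP1), in 0 of the 10 cytosolic members and in 0.156% of 10257 genes of the tables with a window. Its second form, ATTGGNCCACG, was present in 3 ER members (HERPUD1, HYOU1 and SDF2L1), in 0 cytosolic members and in 0.127% of genes. The heat shock element, searched as GAANNTTCNNGAA, was present in 4 cytosolic members (DNAJA1, HSP90AA1, HSP90AB1 and HSPA8), in 0 ER members and in 0.478% of genes. The UPR element TGACGTGG was found in HYOU1 and in 1.21% of genes. In HYOU1 it overlaps the first match of the second form. The genes of the tables with a window include the members themselves. A match describes these letters and is not a binding site. In the stretches printed here, written 5′ to 3′ on the gene's strand, capitals mark the fixed letters of the matched element, on either strand.
HSPA5: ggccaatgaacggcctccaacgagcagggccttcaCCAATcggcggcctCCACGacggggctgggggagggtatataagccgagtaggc
XBP1: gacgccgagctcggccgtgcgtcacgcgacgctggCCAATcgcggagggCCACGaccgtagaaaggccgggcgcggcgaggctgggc
HERPUD1: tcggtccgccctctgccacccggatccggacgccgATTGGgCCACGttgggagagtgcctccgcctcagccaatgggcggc
HYOU1: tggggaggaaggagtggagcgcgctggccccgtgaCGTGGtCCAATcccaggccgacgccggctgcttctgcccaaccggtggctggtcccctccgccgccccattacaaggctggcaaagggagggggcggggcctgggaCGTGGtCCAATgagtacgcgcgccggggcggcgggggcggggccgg
HSP90AA1: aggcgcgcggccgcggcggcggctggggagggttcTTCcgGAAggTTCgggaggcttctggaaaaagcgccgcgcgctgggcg
HSP90AB1: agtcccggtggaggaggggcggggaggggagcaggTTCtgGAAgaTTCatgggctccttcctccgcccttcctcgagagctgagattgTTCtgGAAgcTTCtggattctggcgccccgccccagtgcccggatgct
The HSPA5 stretch lies at chr9:125241356-125241444 on the minus strand, that of XBP1 at chr22:28800570-28800656 on the minus strand and that of HERPUD1 at chr16:56931990-56932070 on the plus strand. The HYOU1 stretch, with 2 matches, lies at chr11:119057239-119057425 on the minus strand. The stretch of HSP90AA1 lies at chr14:102087085-102087167 on the minus strand and that of HSP90AB1, with 2 matches, at chr6:44247743-44247878 on the plus strand. The first match begins 66 bases before the start in HSPA5, 52 in XBP1, 117 in HERPUD1 and 185 in HYOU1.

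Set against the control in the fit without pairing, the ER members held calls in both directions and the cytosolic members held 0. The ER counts were near the share of all genes called. The 11 cytosolic members are few, and whether the compartments differ in calls was not tested. With shRNA1, HYOU1 and SEL1L rose and MZB1, XBP1 and HERPUD1 fell, 5 of the 23 tested ER members at a limma adjusted p below 0.05. The background was 18.6% of the 10613 genes tested. Of the 11 cytosolic members 0 passed. At an unadjusted p below 0.05 limma had 1 cytosolic member higher and 2 lower, where 1993 of the 10613 genes were higher and 1839 lower. With limma-voom run on recovered reads 0 cytosolic members passed, and 3 pass as higher and 2 as lower in the authors' deposited table. With shRNA2, DNAJC3 rose and MZB1 and XBP1 fell, 3 of 23 ER members, against 15.7% of the 10659 genes tested. Again 0 of 11 cytosolic members passed. At an unadjusted p below 0.05 limma had 0 of them higher and 3 lower, where 1783 of the 10659 genes were higher and 1720 lower. At that unadjusted p the cytosolic share was below that of all genes with each hairpin. By limma-voom 1 cytosolic member was lower with shRNA2, and 0 were higher and 3 lower in the authors' deposited table. The authors' deposited table calls 8 ER members higher and 3 lower with shRNA1, where it calls 35.9% of all genes. With shRNA2 it calls 5 ER members higher and 5 lower, and 38.8% of all genes. The counts also depended on leaving the library letter out of the fit. A paired limma fit with the letter as a block, which has 1 residual degree of freedom per gene, called 10 ER and 3 cytosolic members with shRNA1, against 35.6% of all genes, and 9 and 4 with shRNA2, against 39.1%. Of the cytosolic members in that fit, HSPH1 and HSPA4 were higher with shRNA1, HSPB1 was lower with both hairpins, and HSP90AB1, HSP90AA1 and HSF1 were lower with shRNA2.

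The 2 hairpins shared their control libraries, so the values of either are given side by side. The median log2 fold change of the ER members was 0.13 with shRNA1 and 0.17 with shRNA2, and that of the cytosolic members 0.04 and -0.08, beside -0.00 over all genes tested in both comparisons. Of the 23 ER members 15 had a positive fold change with shRNA1 and 16 with shRNA2. Of the 11 cytosolic members 6 were positive with shRNA1 and 3 with shRNA2. Libraries of the groups did not overlap for 8 ER members above and 3 below the control with shRNA1 and for 1 cytosolic member above and 2 below, where 66.0% of all tested genes did not overlap. With shRNA2 they did not overlap for 8 ER members above and 4 below and for 0 cytosolic members above and 3 below, against 62.1% of all genes. In each comparison the members' share was below that of all genes. Whether the medians of the compartments differ was not tested. Scaling every library to the same sum of RPKM moved the median of all genes to 0.13 with shRNA1 and 0.11 with shRNA2, and the ER medians to 0.26 and 0.30. The cytosolic medians became 0.18 and 0.05, so the negative value with shRNA2 changed sign on that scale, though it stayed below the median of all genes. In that scaling 73.3% of the genes called with shRNA1 were higher, against 53.8% as deposited, and 64.5% with shRNA2, against 51.6%. The medians depended on the control library used. With shRNA1 the ER median was 0.34 without control A and -0.02 without control B, and the cytosolic median 0.29 and -0.31. With shRNA2 the ER median was 0.31 without control A and -0.13 without control B, and the cytosolic median -0.00 and -0.42.

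**Figure D2:**
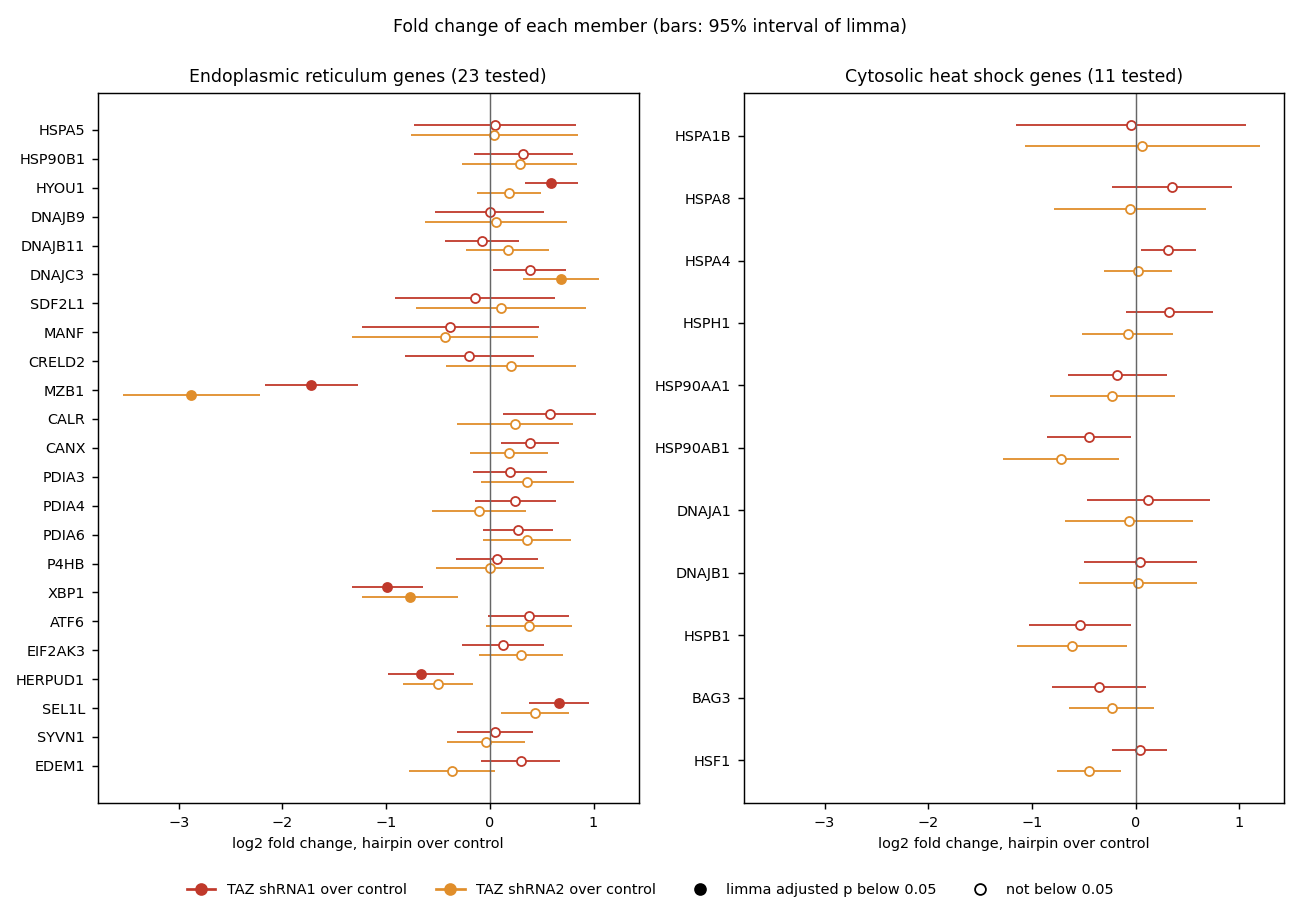
Log2 fold change of the 34 tested members with each hairpin over the control, with the 95% interval of limma as a bar; filled points passed an adjusted p of 0.05. The 8 filled points are ER genes, and MZB1 lies farthest from 0, at -1.72 with shRNA1 and -2.88 with shRNA2.

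Among the ER Hsp70 and Hsp90 chaperones and their partners, HYOU1 rose with shRNA1, DNAJC3 rose with shRNA2 and MZB1 fell with both. HYOU1, the ER member of the Hsp110 family and a nucleotide exchange factor of HSPA5, had 47.1 and 45.4 RPKM with shRNA1, 34.4 and 35.1 RPKM with shRNA2 and 30.6 and 30.4 RPKM in the control. The 3 groups did not overlap, and the shRNA1 libraries were the highest. Against the control, HYOU1 rose with shRNA1 by a log2 value of 0.59 (SE 0.11, limma adjusted p = 0.0144), while with shRNA2 the value was 0.19 (SE 0.13, adjusted p = 0.370). The call with shRNA1 was lost without either shRNA1 library (adjusted p up to 0.110). DNAJC3, the J-domain cochaperone P58IPK, had 17.0 and 15.0 RPKM with shRNA1, 20.2 and 19.4 RPKM with shRNA2 and 13.6 and 10.8 RPKM in the control. Both hairpins lay above the control and shRNA2 was the highest. DNAJC3 rose with shRNA2 (log2 fold change 0.68, SE 0.16, adjusted p = 0.0296), and with shRNA1 the value was 0.38 (SE 0.15, adjusted p = 0.114, and 0.0234 in the paired fit), and the call with shRNA2 was lost without control B, without either shRNA2 library and with the gene length trend removed (adjusted p up to 0.0759).

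MZB1, an ER protein best known as a cochaperone of HSP90B1 in B cells and plasma cells, was low and fell further than any other member. It had 1.41 and 1.49 RPKM with shRNA1, 0.622 and 0.181 RPKM with shRNA2 and 7.10 and 4.95 RPKM in the control. These levels rest on 24 and 26 reads with shRNA1, 10 and 3 reads with shRNA2 and 105 and 83 reads in the control, and the 3 groups did not overlap. Its log2 fold change was -1.72 (95% interval -2.17 to -1.28, adjusted p = 0.00339) with shRNA1 and -2.88 (95% interval -3.54 to -2.22, adjusted p = 0.00255) with shRNA2. It passed in all 14 alternatives that tested it with either hairpin. Of 12 other B and plasma cell markers 5 had a row, and they summed to 6.17 and 6.51 RPKM with shRNA1, 2.58 and 2.74 RPKM with shRNA2 and 4.95 and 2.80 RPKM in the control. CD79B was the highest of them with shRNA1 and in the control, and PRDM1 with shRNA2. The summed markers lay above both control libraries with shRNA1 and below both with shRNA2, and their part in the MZB1 values was not tested.

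HSPA5, the Hsp70 of the ER (BiP) and the member most often used to read the unfolded protein response, did not separate the groups. It had 254 and 202 RPKM with shRNA1, 254 and 201 RPKM with shRNA2 and 326 and 148 RPKM in the control. All 4 hairpin libraries lay between the 2 control libraries. Limma gave a log2 fold change of 0.05 (95% interval -0.74 to 0.83, adjusted p = 0.932) with shRNA1 and 0.04 (95% interval -0.76 to 0.85, adjusted p = 0.945) with shRNA2. Against control B alone the shRNA1 value was 0.62 (adjusted p = 0.000575) and against control A alone -0.52 (adjusted p = 0.00377), so either direction would be called from 1 control library, if that library is assumed to vary like the shRNA1 pair. HSP90B1, the Hsp90 of the ER (GRP94), had 538 and 503 RPKM with shRNA1, 526 and 490 RPKM with shRNA2 and 507 and 341 RPKM in the control. Its shRNA1 range overlapped the control, as did its shRNA2 range. Its log2 fold changes were 0.32 (SE 0.20, adjusted p = 0.284) and 0.29 (SE 0.24, adjusted p = 0.436).

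The other partners did not pass with either hairpin. DNAJB9 (ERdj4) and DNAJB11 (ERdj3), J-domain cochaperones of HSPA5, had log2 fold changes between -0.08 and 0.17. SDF2L1, which works with DNAJB11, had -0.14 with shRNA1 and 0.11 with shRNA2, and CRELD2, an ER protein induced by ER stress, -0.20 and 0.20. MANF, a secreted ER stress protein that binds HSPA5, had 113 and 82.9 RPKM with shRNA1, 117 and 74.4 RPKM with shRNA2 and 194 and 82.0 RPKM in the control. The highest value was control A, and control B lay among the hairpin libraries. In log2 units MANF was at -0.38 with shRNA1 (SE 0.36) and at -0.43 with shRNA2 (SE 0.39), and in the paired fit its adjusted p was 0.0459 and 0.0269. MANF, HSP90AB1 and HSPA1B were chosen for full description after their values were seen.

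Of the lectin chaperones and disulfide isomerases, 0 of 6 passed with either hairpin. CALR, which binds the glycans of folding proteins in the ER lumen, had 932 and 963 RPKM with shRNA1, 784 and 719 RPKM with shRNA2 and 746 and 539 RPKM in the control. The shRNA1 libraries lay above both control libraries, whereas shRNA2 overlapped the control. In log2 units CALR was at 0.58 (95% interval 0.13 to 1.03, adjusted p = 0.0753) with shRNA1 and 0.24 (95% interval -0.31 to 0.80, adjusted p = 0.510) with shRNA2. CALR with shRNA1 passed in 7 of 15 alternatives, limma-voom (adjusted p = 0.0258) and the paired fit (adjusted p = 0.0195) among them, and the authors' deposited table gives it 0.57 with an adjusted p of 0.000759. CANX (calnexin), its membrane-bound relative, was at a log2 value of 0.39 (SE 0.12, adjusted p = 0.0632, and 0.0288 in the paired fit) with shRNA1 and 0.18 (SE 0.16, adjusted p = 0.459) with shRNA2. P4HB (PDI), the most abundant ER member, had 917 and 831 RPKM with shRNA1, 850 and 818 RPKM with shRNA2 and 915 and 757 RPKM in the control. Its ranges overlapped, with log2 fold changes of 0.07 (95% interval -0.33 to 0.47) and 0.00 (95% interval -0.52 to 0.53). PDIA3, the partner of both lectins, PDIA4 and PDIA6 ranged from -0.11 to 0.36, and PDIA3 and PDIA6 passed with shRNA2 in the paired fit (adjusted p = 0.0122 and 0.0148).

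Of the stress sensors and their transcription factors, XBP1 fell with both hairpins while EIF2AK3 and ATF6 did not pass. XBP1, the transcription factor whose mRNA is spliced by ERN1, had 115 and 90.6 RPKM with shRNA1, 141 and 100 RPKM with shRNA2 and 206 and 200 RPKM in the control. All 4 hairpin libraries lay below both control libraries, and within each hairpin library A was the higher. XBP1 thus fell with shRNA1 (log2 fold change -0.99, SE 0.15, adjusted p = 0.00745) and with shRNA2 (-0.77, SE 0.20, adjusted p = 0.0400). The call with shRNA1 was lost without shRNA1 B (adjusted p = 0.0678), and that with shRNA2 without control A or shRNA2 B (adjusted p up to 0.215). Gene-level RPKM counts spliced and unspliced XBP1 mRNA together. EIF2AK3, the kinase PERK, had 4.17 and 3.58 RPKM with shRNA1, 4.48 and 4.35 RPKM with shRNA2 and 3.93 and 3.09 RPKM in the control. It overlapped the control with shRNA1 and lay above it with shRNA2, with log2 fold changes of 0.13 (SE 0.17, adjusted p = 0.608) and 0.30 (SE 0.17, adjusted p = 0.266). ATF6, the membrane-bound transcription factor that is cleaved in the Golgi, had 0.37 (SE 0.17, adjusted p = 0.153, and 0.0394 in the paired fit) and 0.38 (SE 0.18, adjusted p = 0.182). ERN1, the kinase and nuclease IRE1, was not tested by limma. It had 0.509 and 0.852 RPKM with shRNA1, 0.347 and 0.422 RPKM with shRNA2 and 0.349 and 0.234 RPKM in the control, and the authors' deposited table gives it a log2 fold change of 1.20 with shRNA1 at an adjusted p of 0.00432.

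In ER-associated degradation, the export and disposal of misfolded ER protein, HERPUD1 fell and SEL1L rose with shRNA1. HERPUD1, a membrane protein that organises the degradation complex and a well known target of ER stress, had 20.4 and 17.0 RPKM with shRNA1, 22.0 and 19.9 RPKM with shRNA2 and 28.1 and 31.5 RPKM in the control. All 4 hairpin libraries lay below both control libraries. HERPUD1 fell with shRNA1 (log2 fold change -0.66, SE 0.14, adjusted p = 0.0206), and with shRNA2 the value was -0.50 (SE 0.14, adjusted p = 0.0544). SEL1L, the scaffold of the ubiquitin ligase SYVN1, moved the other way, with 14.6 and 16.1 RPKM with shRNA1, 12.4 and 13.7 RPKM with shRNA2 and 9.35 and 9.58 RPKM in the control. All 4 hairpin libraries lay above both control libraries. SEL1L rose with shRNA1 (log2 fold change 0.67, SE 0.12, adjusted p = 0.0148), and with shRNA2 the value was 0.44 (SE 0.14, adjusted p = 0.0735). In the paired fit HERPUD1 and SEL1L also passed with shRNA2 (adjusted p = 0.00946 and 0.0145). The HERPUD1 call with shRNA1 was lost without shRNA1 B (adjusted p = 0.183) and with RPKM scaled to equal sums (adjusted p = 0.0658), and that of SEL1L without either shRNA1 library (adjusted p up to 0.163). SYVN1 (HRD1) itself had 0.05 and -0.04 (SE 0.16 each). EDEM1, which hands misfolded glycoproteins to this pathway, had 17.0 and 19.2 RPKM with shRNA1, 10.4 and 12.1 RPKM with shRNA2 and 12.6 and 16.9 RPKM in the control. The shRNA1 libraries were the highest and the shRNA2 libraries the lowest, and neither hairpin passed against the control, at 0.30 (SE 0.16, adjusted p = 0.227) and -0.37 (SE 0.18, adjusted p = 0.196, and 0.0342 in the paired fit).

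**Figure D3:**
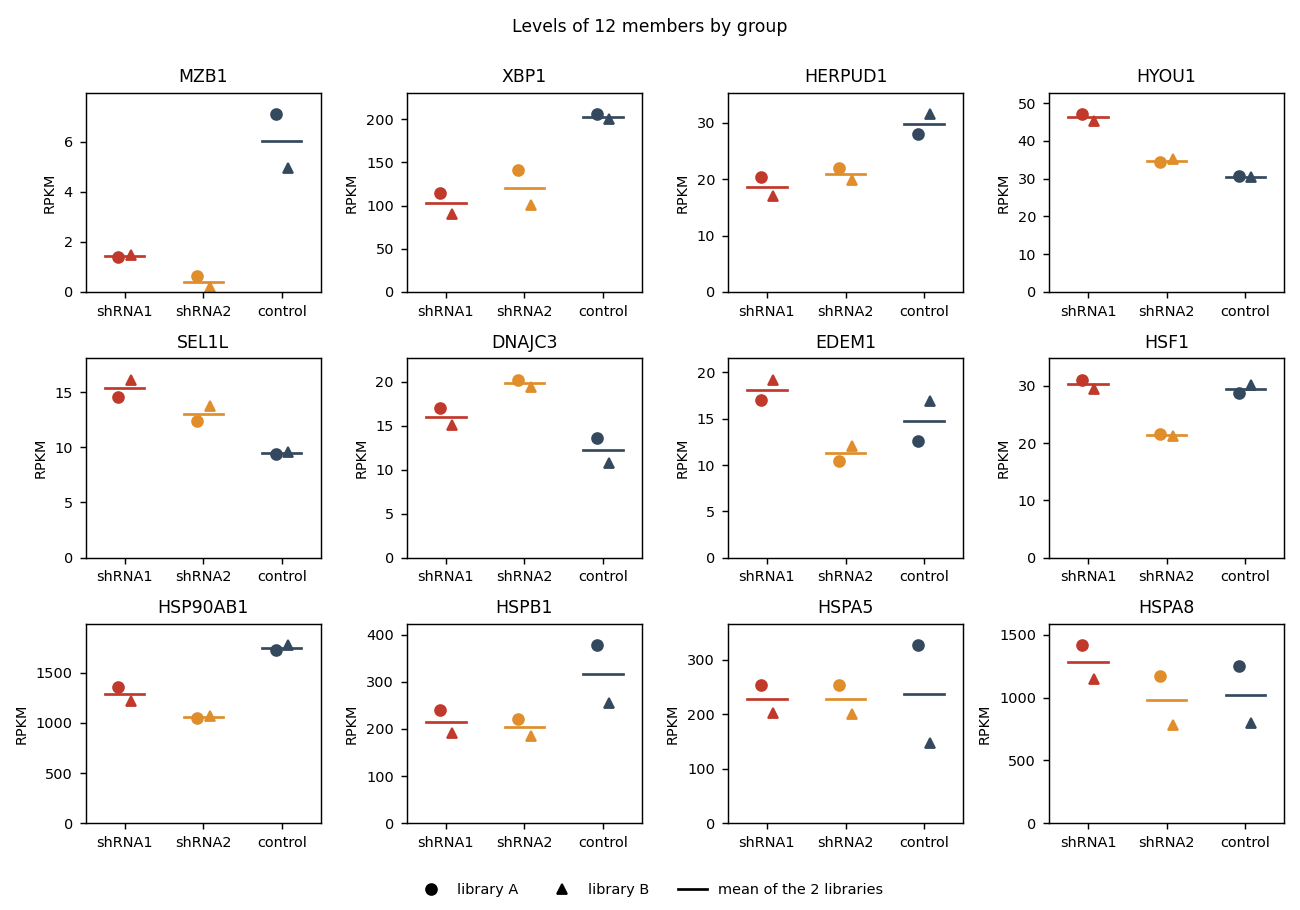
RPKM of 12 members in every library, on linear axes from 0, with the mean of the 2 libraries of a group as a line (circle A, triangle B). The 8 genes that passed in at least 1 comparison come first, followed by HSP90AB1, HSPB1, HSPA5 and HSPA8; XBP1 and HERPUD1 are below the control in all 4 hairpin libraries and SEL1L is above it.

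In the fit without pairing the cytosolic heat shock members gave 0 calls with either hairpin, and the abundant Hsp90 HSP90AB1 and the small heat shock gene HSPB1 had the most negative values. HSP90AB1, the constitutive cytosolic Hsp90, had 1353 and 1216 RPKM with shRNA1, 1046 and 1073 RPKM with shRNA2 and 1726 and 1773 RPKM in the control. The 3 groups did not overlap and the control was the highest. For HSP90AB1 the log2 fold change was -0.45 (95% interval -0.85 to -0.04, adjusted p = 0.110) with shRNA1 and -0.72 (95% interval -1.28 to -0.16, adjusted p = 0.0810) with shRNA2. With shRNA2 it passed in 5 of 15 alternatives and in the authors' deposited table. Among the 5 were limma-voom (adjusted p = 0.0155) and the paired fit (adjusted p = 3.46e-05). For limma-voom the reads of HSP90AB1 were not recovered as whole reads but scaled from the deposited mean log2 CPM. HSPB1 (Hsp27), a small heat shock protein that holds unfolded proteins, had 241 and 190 RPKM with shRNA1, 222 and 185 RPKM with shRNA2 and 377 and 256 RPKM in the control. All hairpin libraries lay below both control libraries, with log2 fold changes of -0.54 (SE 0.21, adjusted p = 0.114) and -0.61 (SE 0.23, adjusted p = 0.110). In the paired fit HSPB1 was lower with both (adjusted p = 0.00517 and 0.00103). HSP90AA1, the stress-inducible Hsp90, had 953 and 763 RPKM with shRNA1, 940 and 722 RPKM with shRNA2 and 1109 and 837 RPKM in the control. Its groups overlapped, at -0.18 (SE 0.20) and -0.23 (SE 0.26), and the paired fit gave the shRNA2 value an adjusted p of 0.0320.

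Of the other cytosolic members, the Hsp70 genes HSPA8 and HSPA1B overlapped the control with both hairpins. HSPA8, the constitutive Hsc70, had 1417 and 1148 RPKM with shRNA1, 1175 and 783 RPKM with shRNA2 and 1253 and 797 RPKM in the control. Library A was the higher in each group and the groups overlapped, with log2 fold changes of 0.35 (SE 0.25, adjusted p = 0.335) and -0.06 (SE 0.32, adjusted p = 0.914). HSPA1B, the inducible Hsp70, had 1.84 and 1.41 RPKM with shRNA1, 2.28 and 1.38 RPKM with shRNA2 and 3.41 and 0.723 RPKM in the control. All hairpin libraries lay between the 2 control libraries. HSPA1B is uncertain, because HSPA1A is a near-identical copy, and reads of HSPA8, HSP90AA1 and HSP90AB1 could likewise be shared with pseudogenes. HSPA4 and HSPH1, exchange factors of the Hsp110 family, had 0.31 (SE 0.11, adjusted p = 0.0923) and 0.33 (SE 0.18, adjusted p = 0.231) with shRNA1 (adjusted p = 0.0487 and 0.0349 in the paired fit) and 0.02 and -0.08 with shRNA2. The Hsp40 cochaperones DNAJA1 and DNAJB1 ranged from -0.06 to 0.12. BAG3, a cochaperone of Hsp70 and small heat shock proteins, had -0.35 (SE 0.19) and -0.23 (SE 0.18). HSF1, the heat shock factor, had 31.1 and 29.5 RPKM with shRNA1, 21.6 and 21.2 RPKM with shRNA2 and 28.7 and 30.2 RPKM in the control. With shRNA1 it overlapped the control, at 0.04 (SE 0.11, adjusted p = 0.819), and with shRNA2 it lay below, at -0.45 (SE 0.13, adjusted p = 0.0592, and 0.0110 in the paired fit).

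The hairpins were also compared with each other, in one fit of all 6 libraries. MZB1, EDEM1 and HSF1 were lower with shRNA2 than with shRNA1, and 0 members were higher. This is 2 of 23 ER members and 1 of 11 cytosolic members, against 10.9% of the 10660 genes tested. The log2 difference was -1.16 (SE 0.26, limma adjusted p = 0.0269) for MZB1, -0.67 (SE 0.16, adjusted p = 0.0370) for EDEM1 and -0.49 (SE 0.11, adjusted p = 0.0291) for HSF1. Both shRNA2 libraries lay below both shRNA1 libraries in each case. The calls of EDEM1 and HSF1 were lost without any 1 of the 4 hairpin libraries, with limma-voom and with RPKM scaled to equal sums (adjusted p up to 0.254 and 0.232). That of MZB1 was lost without either shRNA1 library or without shRNA2 B (adjusted p up to 0.178). HYOU1, with a difference of -0.41 (95% interval -0.66 to -0.15, adjusted p = 0.0514), did not pass. In the paired fit MZB1, EDEM1, HSF1, HYOU1 and HSPH1 were lower (adjusted p = 0.0174 and 0.0186 for HYOU1 and HSPH1), against 22.5% of all genes. For HSPA5 the interval of the difference was -0.75 to 0.74, for XBP1 -0.21 to 0.65 and for HERPUD1 -0.15 to 0.48. The median difference was -0.00 over the ER members, -0.18 over the cytosolic members and -0.01 over all genes. Of the 11 cytosolic members 9 had a negative difference, and of the 23 ER members 12 did. The cytosolic median was 0.06 without shRNA1 A and 0.05 without shRNA2 B. Groups did not overlap for 4 ER members higher and 7 lower and for 0 cytosolic members higher and 3 lower, where 58.6% of all genes did not overlap.

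Among chaperones of both compartments, library A was the higher of the 2 for a larger share of members than over all genes. It was higher than library B in all 3 groups for 14 of 23 ER members (60.9%) and 7 of 11 cytosolic members (63.6%), against 24.8% of 10660 genes. The median log2 ratio of A over B in the ER members was 0.11 with shRNA1, 0.14 with shRNA2 and 0.32 in the control. In the cytosolic members it was 0.32, 0.38 and 0.41 in the same groups, while over all genes it was 0.01, 0.03 and -0.01. The difference was widest in the control, where A was 4.72 times B for HSPA1B, 2.37 times for MANF, 2.21 times for HSPA5, 2.10 times for SDF2L1 and 1.84 times for CRELD2. HYOU1, CANX, XBP1, SEL1L, HSP90AB1, HSPA4 and HSF1 were close to equal in the 2 control libraries, with ratios between 0.952 and 1.05. The RPKM of all genes also summed to more in library A in each group, at 616838 against 529268 in the control. As a share of that sum the ER members were higher in A with shRNA1 and in the control. With shRNA2 they were lower in A (0.668% against 0.709%). The cytosolic share was higher in A in all 3 groups. The labels give the letters no meaning beyond naming the library, and what sets A and B apart was not tested.

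**Figure D4:**
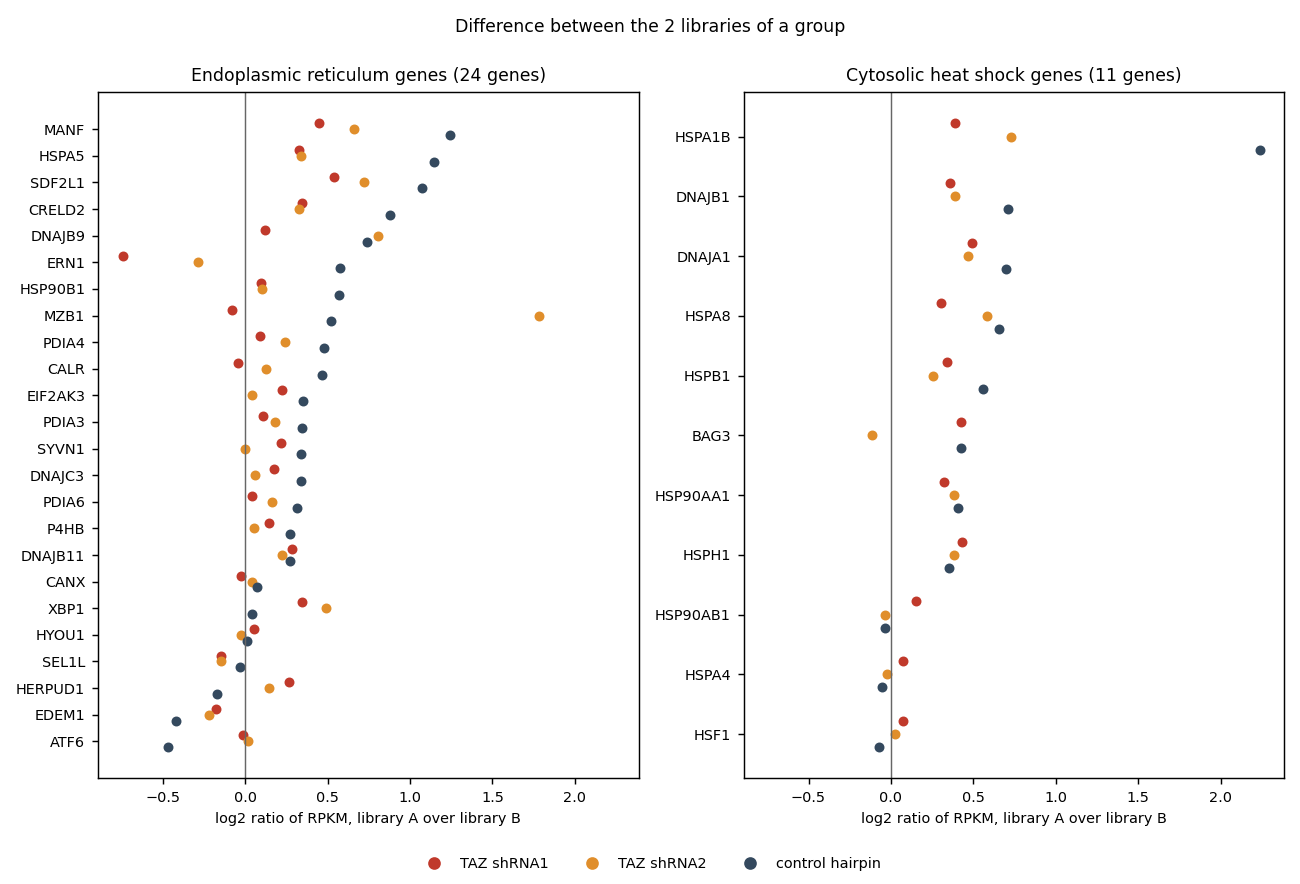
Log2 ratio of RPKM in library A over library B within each group, for the 24 ER genes (left) and the 11 cytosolic genes (right), ordered by the control. Most points lie right of 0, and of the control points those of HSPA1B, MANF, HSPA5 and SDF2L1 lie farthest to the right.

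The 10 ER members with either ER stress element in their window held calls in both directions. Their median log2 fold change was 0.16 with shRNA1 and 0.18 with shRNA2, against 0.10 and 0.03 for the other 12 tested ER members with a window. They included HYOU1, which rose with shRNA1, and XBP1 and HERPUD1, which fell with it. The median ratio of control A over control B was 1.31 in the 10 genes and 1.27 in the other 13. These are descriptions of small groups with no test.

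Summed over members, transcripts of the ER genes made up 0.759% and 0.722% of all RPKM with shRNA1, 0.668% and 0.709% with shRNA2 and 0.633% and 0.548% in the control. All 4 hairpin libraries lay above both control libraries on this scale. With RPKM scaled to equal sums the median log2 fold change of all genes tested was also positive, at 0.13 with shRNA1 and 0.11 with shRNA2. Without that scaling the ER genes summed to 3955 and 3690 RPKM with shRNA1 and 3797 and 3404 RPKM with shRNA2. The control had 3906 and 2900 RPKM, so the groups overlapped. The cytosolic genes made up 0.854% and 0.724% with shRNA1, 0.667% and 0.645% with shRNA2 and 0.797% and 0.755% in the control. With shRNA1 that share overlapped the control and with shRNA2 it lay below. P4HB, CALR and HSP90B1 dominate the ER sum, and HSP90AB1, HSPA8 and HSP90AA1 the cytosolic sum.

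Other genes of the same pathways gave calls in both directions in some lists and in a single direction in others. Counts of the fit without pairing are to be read against 18.6% of all genes called with shRNA1 and 15.7% with shRNA2. Of 26 other ER folding and glycan enzymes 4 rose and 2 fell with shRNA1 (23.1%) and, of 25 tested, 1 rose and 1 fell with shRNA2 (8.0%). CALU (calumenin), a calcium-binding protein of the secretory pathway, had 33.8 and 34.7 RPKM with shRNA1, 7.29 and 8.01 RPKM with shRNA2 and 22.8 and 25.7 RPKM in the control. It rose with shRNA1 (log2 fold change 0.49, adjusted p = 0.0308) and fell with shRNA2 (-1.60, adjusted p = 0.00245), and the hairpins differed by -2.09 (adjusted p = 0.000720). Of 18 other ER-associated degradation genes 4 rose and 1 fell with each hairpin (27.8%). The lectin ERLEC1 rose by 0.90 with shRNA1 and 1.01 with shRNA2 (adjusted p = 0.00530 and 0.00748), and EDEM3, a mannosidase-like relative of EDEM1, by 0.92 and 0.72 (adjusted p = 0.00900 and 0.0289). EDEM2, of the same family, rose by 0.49 and 0.76 (adjusted p = 0.0331 and 0.0199). Of 17 translocon and signal peptide genes 1 rose with shRNA1 (5.88%) and 2 with shRNA2 (11.8%), SSR1 with both, at 0.44 and 0.54 (adjusted p = 0.0347 and 0.0365). The paired fit called 10, 6 and 5 genes of these 3 lists with shRNA1 and 7, 9 and 4 with shRNA2. Over all genes that fit called 35.6% with shRNA1 and 39.1% with shRNA2.

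Among 9 other transcription factors and proteases of ER stress, 1 rose and 2 fell with shRNA1 (33.3%) and 1 rose and 1 fell with shRNA2 (22.2%), and the paired fit had 2 higher and 3 lower with shRNA1. ATF4, the effector of EIF2AK3 and other kinases, had 244 and 226 RPKM with shRNA1, 186 and 166 RPKM with shRNA2 and 451 and 602 RPKM in the control, and it fell, at log2 fold changes of -1.15 and -1.56 (adjusted p = 0.00768 and 0.00568). ATF6B, the relative of ATF6, had 55.8 and 55.3 RPKM with shRNA1, 54.9 and 57.8 RPKM with shRNA2 and 38.0 and 39.8 RPKM in the control, and it rose by 0.51 and 0.53 (adjusted p = 0.0232 and 0.0413). Of 30 other tested Hsp70, Hsp40 and Hsp90 family genes and cochaperones 1 rose and 1 fell with shRNA1 (6.67%) and 0 rose and 3 fell with shRNA2 (10.0%). The paired fit had 2 higher and 4 lower with shRNA1 and 1 higher and 10 lower with shRNA2. DNAJC2, a J-domain protein of the ribosome, fell with both, at -0.75 and -0.85 (adjusted p = 0.0134 and 0.0119). Of 14 subunits of the TRiC chaperonin and prefoldin, 3 fell with shRNA1 (21.4%) and 1 with shRNA2 (7.14%), and 0 rose. In the paired fit 0 were higher and 4 lower with shRNA1, and 1 was higher and 11 lower with shRNA2. Their median log2 fold change was -0.11 with shRNA1 and -0.37 with shRNA2, beside -0.00 over all genes. The paired counts of these lists are to be read against 35.6% of all genes with shRNA1 and 39.1% with shRNA2.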

How the data were processed

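Total RNA of OCI-AML2 cells was sequenced in 6 libraries, 2 per group, from directional libraries per the labels' protocols. Per the submitters' processing notes, the tools were DESeq 1.18.0, edgeR 3.8.6, HTSeq 0.6.1p2, TopHat2 2.0.11 and Trim Galore 0.4.0, on build hg19, with no role stated. How genes were filtered and which strand setting was used is not given in the sources used here, so antisense reads may be counted in a gene. Per the file headers, each of 2 deposited tables holds 1 hairpin and the control as RPKM, beside the authors' own statistics (average CPM and fold change, both log2, a likelihood-ratio score, a p-value and its adjusted form). Control columns, named GFP there and scramble in the labels, were identical in both tables. Columns were matched by table title and letter, and 0 stayed unmatched.

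Here 21 date-like symbols were renamed by gene ID and 2 repeats dropped, leaving 13002 genes. Whole reads were recovered from RPKM steps for 12972 genes (99.8%, within 0.01 of a whole read); the other 30, HSP90AA1 and HSP90AB1 among them, took their scale from the deposited mean log2 CPM. Values were set to log2(RPKM + 0.5), which understates changes of low genes. Genes averaging 1 RPKM or more were fitted with limma 3.58.1 (R 4.3.3, trended prior, two-sided, Benjamini-Hochberg over all genes tested, threshold 0.05), each hairpin in its own 4 libraries and the hairpins against each other in all 6. The fit was also run on simulated reads. Those libraries were drawn independently, with no difference shared by libraries of the same letter, so that run does not bear on pairing. The letters A and B are shared by the groups in the labels, which do not say what they mark. The A minus B difference over 10660 genes correlated at 0.367 between shRNA1 and shRNA2, 0.26 between shRNA1 and control and 0.423 between shRNA2 and control, so values of a paired fit, with the letter as a block, are given where they change a call. Every adjusted p without another name is limma's. Alternatives were other pseudocounts and filters, a replicate block, robust and quantile settings, limma-voom on recovered reads, a gene length trend, 1 fit of all libraries, leaving out each library, and, chosen after seeing the data, RPKM scaled to equal sums.

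The members and the lists of other genes were chosen with earlier results of these data known. Members were described with every value if called in any comparison or best known of their role, the rest by range. Of the other lists, up to 3 called genes each with the smallest larger p of the 2 hairpins could be named. Promoter sequences are RefSeq's, build GRCh38.p14, a different build from the tables.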

Additional observations from a re-analysis of the deposited data

Results flagged for a closer look

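For 3 members the effect of the hairpins differed by a test of the difference itself. They were 2 of 23 ER and 1 of 11 cytosolic members tested, against 10.9% of all 10660 genes. The log2 difference of MZB1, shRNA2 over shRNA1, was -1.16, with 0.622 and 0.181 RPKM with shRNA2 and 1.41 and 1.49 RPKM with shRNA1. Its shRNA2 values rest on 10 and 3 reads. EDEM1 differed by -0.67, with 10.4 and 12.1 RPKM with shRNA2 and 17.0 and 19.2 RPKM with shRNA1. HSF1 differed by -0.49, with 21.6 and 21.2 RPKM with shRNA2 and 31.1 and 29.5 RPKM with shRNA1. In each case both shRNA2 libraries lay below both shRNA1 libraries. The calls of EDEM1 and HSF1 were lost without any one of the hairpin libraries, with limma-voom and with RPKM scaled to equal sums. That of MZB1 was lost without either shRNA1 library or without shRNA2 B.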

How the results depend on the processing

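Counts of called members moved with the choice of library and with pairing. Leaving out 1 library gave 1 to 13 ER and 0 to 6 cytosolic calls with shRNA1, 1 to 4 and 0 to 2 with shRNA2, and 0 to 3 and 0 to 1 between the hairpins, against 5, 0, 3, 0, 2 and 1 with all libraries. The lone library left in a group is assumed to vary like the others. The number of all genes called also moved with the library left out. With shRNA1 it rose without either control library and fell without either shRNA1 library, as the ER count did. With shRNA1, 10 ER members were called higher and 3 lower without control A, and 6 higher and 7 lower without control B. With quantile normalization the calls were 9 ER and 2 cytosolic with shRNA1 and 5 ER with shRNA2. Over all genes that setting called 2121 with shRNA1 and 1858 with shRNA2, against 1971 and 1676 with RPKM as deposited. With RPKM scaled to equal sums the ER and cytosolic calls were 8 and 2 with shRNA1, 5 and 2 with shRNA2, and 1 and 0 between the hairpins. The calls over all genes were then 1800, 1366 and 778, the last against 1160 as deposited. With the gene length trend removed, 1 cytosolic member passed with shRNA1 and 3 with shRNA2, where 2087 and 2505 of all genes did. In 1 fit of all 6 libraries 5 ER and 2 cytosolic members passed with shRNA2, where 2584 of all genes did. With limma-voom 1 cytosolic member passed with shRNA2, and 1 ER and 0 cytosolic members between the hairpins. Over all genes limma-voom called 1785 and 1064 in these comparisons. With a filter at 5 RPKM 1 ER member passed between the hairpins, since MZB1 was no longer tested. Of all 7541 genes tested with that filter 816 passed. For the other moved counts the cause was not tested. Of the members called with all libraries, 0 reversed in the alternatives run. HSPA5 and HSPA1B, not called with all libraries, were called in opposite directions with shRNA1 without control A and without control B (0.62 and -0.52, 0.79 and -0.89), and HSPA1B likewise with shRNA2 (0.90 and -0.77).

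A paired fit, with the letter as a replicate block, called 10 ER and 3 cytosolic members with shRNA1, 9 and 4 with shRNA2, and 3 and 2 between the hairpins. Over all genes it called 3780 with shRNA1, 4170 with shRNA2 and 2396 between the hairpins.

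With 2 libraries per group, intervals are wide for members whose control libraries lay apart, such as HSPA5 and MANF, and MZB1, ERN1 and HSPA1B rest on few reads.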
